A study of Mus musculus with 6 samples.

Results

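The genes described are *Lrpprc*, its partner *Slirp*, and 6 nuclear genes for enzymes and factors that make, tail or degrade mitochondrial RNA, namely *Mtpap*, *Pnpt1*, *Supv3l1*, *Polrmt*, *Tfam* and *Tfb2m*. They were taken by symbol from a table of 41709 mouse genes, and all 8 were among the 11611 genes with a mean of at least 1 TPM. TPM, the unit of the table, measures what fraction of a library's transcripts a gene makes up, after correction for transcript length. The 6 libraries came from tibialis anterior (TA) muscles of male C57BL/6J mice, a limb muscle of mostly fast fibres, collected 14 days after electroporation. In the 3 LrpprcWT muscles the plasmid pCMV6-LrpprcWT-3xFlag was introduced, and in the 3 LrpprcP27A muscles, contralateral to them, pCMV6-LrpprcP27A-3xFlag, in which alanine replaces the proline at position 27. Both plasmids encode Flag-tagged mouse Lrpprc under the CMV promoter, which is not restricted to muscle fibres, and both groups kept the mouse's own *Lrpprc* gene. Every muscle was therefore electroporated and carried added *Lrpprc*, and TPM values do not separate plasmid from mouse transcripts. The methods of the study describe mice of 4 and of 27 months, and the age of the mice used for RNA-seq is not stated outright. The comparison asked whether loss of the hydroxylation site at proline 27 alters muscle transcripts relative to the wild-type protein.

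Mitochondrial DNA is transcribed by the single-subunit polymerase Polrmt, with Tfam, which bends and packages the DNA, and Tfb2m, which opens the promoter. The long transcripts are cut at tRNAs, and the mRNAs receive poly(A) tails from Mtpap. Lrpprc, a protein built of helical repeats, binds these mRNAs together with the small RNA-binding protein Slirp and keeps them stable and translatable, and each of the pair depends on the other for its own stability. Surplus and antisense RNA is removed by the degradosome, which joins the exonuclease PNPase, made from *Pnpt1*, to the helicase Suv3, made from *Supv3l1*. All of these proteins are encoded in the nucleus, so that their mRNAs and the mitochondrial RNAs they act on come from separate genomes.

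The residue that differs between the plasmids lies near the amino terminus. In the mouse gene its codon, CCT, is in exon 1 of *Lrpprc*, at positions 85097861 to 85097863 of chromosome 17 (GRCm39, minus strand). The coding sequence has 1392 codons. The sequence of codons 14 to 40 is shown because the 2 groups differ by the substitution P27A, with the codon for proline 27 in capitals. It is the mouse reference sequence, at chr17:85097822-85097902 on the minus strand, and the bases of the plasmids' own codon 27 were not read here.
Lrpprc codons 14 to 40: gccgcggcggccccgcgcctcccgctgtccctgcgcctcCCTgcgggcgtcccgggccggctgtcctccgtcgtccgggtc

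Fibre markers marked all 6 libraries as skeletal muscle, with 10 fibre genes summing to 144521 to 159640 TPM with LrpprcWT and 134891 to 152940 with LrpprcP27A. The libraries also held RNA of other cells, and most markers of these cells had higher TPM with LrpprcWT. Of 10 macrophage genes 9 were tested, and limma called all 9 lower with LrpprcP27A (adjusted p under 0.05). The 10 summed to 278 to 543 TPM with LrpprcWT against 93.8 to 183 with LrpprcP27A. Of 10 fibroblast genes, 9 were lower by the same test (1034 to 1727 TPM against 284 to 616), and of 10 endothelial genes 3 were lower (263 to 461 against 199 to 267, with overlap), where 23.3% of all tested genes were. In a fit that pairs contralateral muscles (replicate block), 9 macrophage, 10 fibroblast and 9 endothelial genes were lower, against 48.4% of all genes. After median-of-ratios scaling, which sets the typical gene to a common level in all libraries, 5, 6 and 0 were, against 6.03%. With block and scaling together 8, 8 and 4 were lower, against 15.8%, and 1 endothelial gene was higher, against 13.4%. Of the 10 fibre genes limma called 1 lower and 1 higher, against 23.3% and 1.34% of all genes. The block gave 2 and 2, against 48.4% and 2.69%. Scaling gave 0 and 1, against 6.03% and 5.25%, and both together 0 and 4, against 15.8% and 13.4%. None of these genes was at 0 in all libraries. *Rn18s-rs5*, a gene of 18S ribosomal RNA, had 8874 to 17614 TPM with LrpprcWT and 37023 to 44435 with LrpprcP27A. In bulk muscle, fewer cells of a type and less RNA per cell cannot be told apart, and the part of these differences in the results below was not tested.

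The TPM of each library sum to a fixed total, which leaves the sequencing depth unknown and ties the value of each gene to those of all others. On this scale the typical gene was lower with LrpprcP27A, with a median log2 fold change of -0.32 over the tested genes and 88.0% of them below 0. Median-of-ratios factors, which give the typical level of a gene in a library relative to the other libraries, were 1.23, 0.974 and 1.25 in the LrpprcWT libraries and 0.897, 0.851 and 0.899 in the LrpprcP27A libraries. LrpprcWT replicate 2 thus lay between its own group and the other. Dividing by these factors moved the median of all genes to -0.0047, with 50.8% below 0. Each log2 fold change below is that of LrpprcP27A vs. LrpprcWT on log2(TPM + 1), which understates changes of genes with low values.

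On the deposited scale all 8 genes had log2 fold changes below 0, from -0.72 for *Lrpprc* to -0.02 for *Tfb2m*. Their median was -0.27, close to the -0.32 of all genes, and only 3 of them, *Lrpprc*, *Pnpt1* and *Mtpap*, lay below that median. None of the 8 was called lower or higher by limma (adjusted p under 0.05), where 23.3% of all tested genes were called lower and 1.34% higher. Without adjustment of p, limma gave 3 lower, a linear model without moderation 1 and the Kruskal-Wallis test 4, and none of the 3 tests gave a higher one. With 3 muscles per group the Kruskal-Wallis test falls under 0.05 only where the groups do not overlap. Its 4 genes are therefore those without overlap named below. For limma and the linear model, the share of all genes without adjustment of p was not counted, here or for the lists below. The 2 groups came from contralateral muscles of the same mice, and with the replicate number as a block limma called *Lrpprc*, *Pnpt1* and *Mtpap* lower and none higher, against 48.4% and 2.69% of all genes. The 3 LrpprcP27A values lay wholly below the 3 LrpprcWT values for *Lrpprc*, *Slirp*, *Mtpap* and *Pnpt1*, and wholly above them for none, against 47.6% and 3.51% of all genes. A share of 3 or 4 in 8 is near or below these backgrounds. With median-of-ratios scaling 3 of the 8 were below 0, with a median of 0.083, and limma called none of them, against 6.03% of all genes lower and 5.25% higher. Adding the block to this scaling gave no lower gene and 2 higher ones, *Polrmt* and *Tfb2m*, against backgrounds of 15.8% lower and 13.4% higher.

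**Figure D1:**
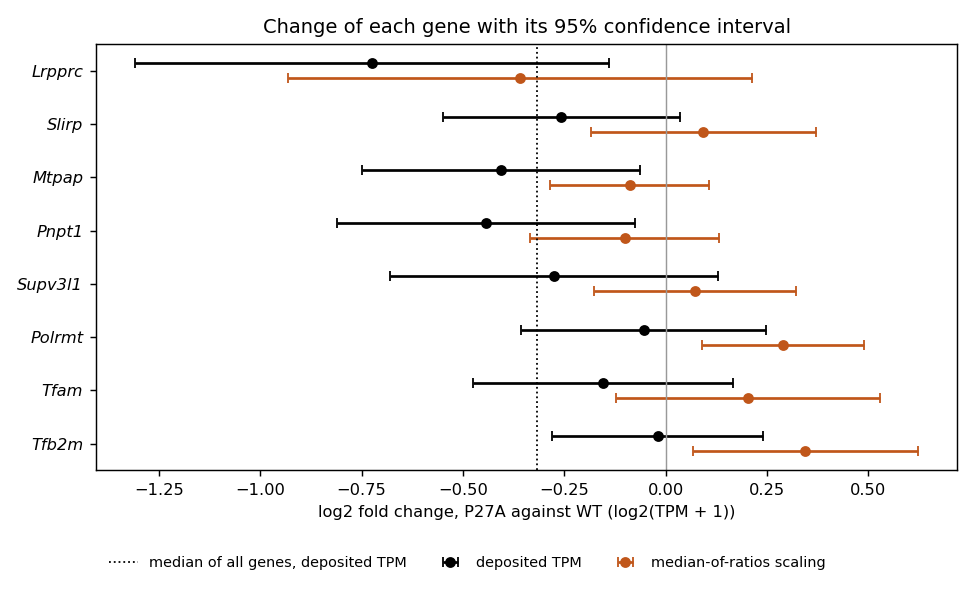
Log2 fold change of LrpprcP27A vs. LrpprcWT (horizontal axis, log2(TPM + 1)) for each of the 8 genes, with 95% confidence intervals from limma without the block, n = 3 muscles per group. On deposited TPM (black) all 8 points lie below 0 and spread around the dotted median of all genes at -0.32, and with median-of-ratios scaling (orange) *Lrpprc*, *Pnpt1* and *Mtpap* remain below 0 while the other points lie above it.

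*Lrpprc* lies on chromosome 17 (85012670 to 85098279, minus strand, 38 exons). It had 35.1, 37.0 and 75.2 TPM in LrpprcWT replicates 1, 2 and 3 and 26.9, 29.7 and 26.0 TPM in LrpprcP27A replicates 1, 2 and 3. The groups did not overlap, but 1 LrpprcWT library stood far above the other two. The means were 49.1 ± 22.6 TPM (SD, n = 3) and 27.6 ± 1.94 TPM (SD, n = 3), and the log2 fold change was -0.72 (95% CI -1.31 to -0.14, standard error 0.26, limma adjusted p = 0.0652). With the replicate block the adjusted p from limma was 0.00243. Within pairs the log2 differences were -0.37, -0.31 and -1.50, where the median gene moved by -0.39, -0.16 and -0.40. *Lrpprc* was thus beside the median gene in the pair of replicate 1, below it in that of replicate 2 and far below it in that of replicate 3.

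The *Lrpprc* value of LrpprcWT replicate 3 was 2.09 times the mean of replicates 1 and 2. On the log2 scale the excess was 1.04, and 73 of all tested genes (0.629%) had one at least as large, the median of all genes being 0.16. For the other 7 genes it was between 0.08 and 0.39. Without this library the log2 fold change of *Lrpprc* was -0.38 (limma adjusted p = 0.114). Without LrpprcWT replicate 2 it was -0.88 (limma adjusted p = 0.0354), in a fit that called 59.5% of all genes lower. With median-of-ratios scaling it was -0.36 (95% CI -0.93 to 0.21, limma adjusted p = 0.331, or 0.245 with the replicate block). How much of the *Lrpprc* RNA came from the plasmid in each muscle cannot be told apart from the mouse transcript in these values. By qRT-PCR the paper reported *Lrpprc* mRNA at similar levels with both plasmids in contralateral TA muscles of young mice, above mock-electroporated muscles. It found no significant difference between the plasmids in old mice, again with levels above mock. The forward primer given in the paper ends within codon 27 of the mouse sequence shown above, the codon that differs between the plasmids. Whether this primer amplifies both plasmids alike was not tested here.

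**Figure D2:**
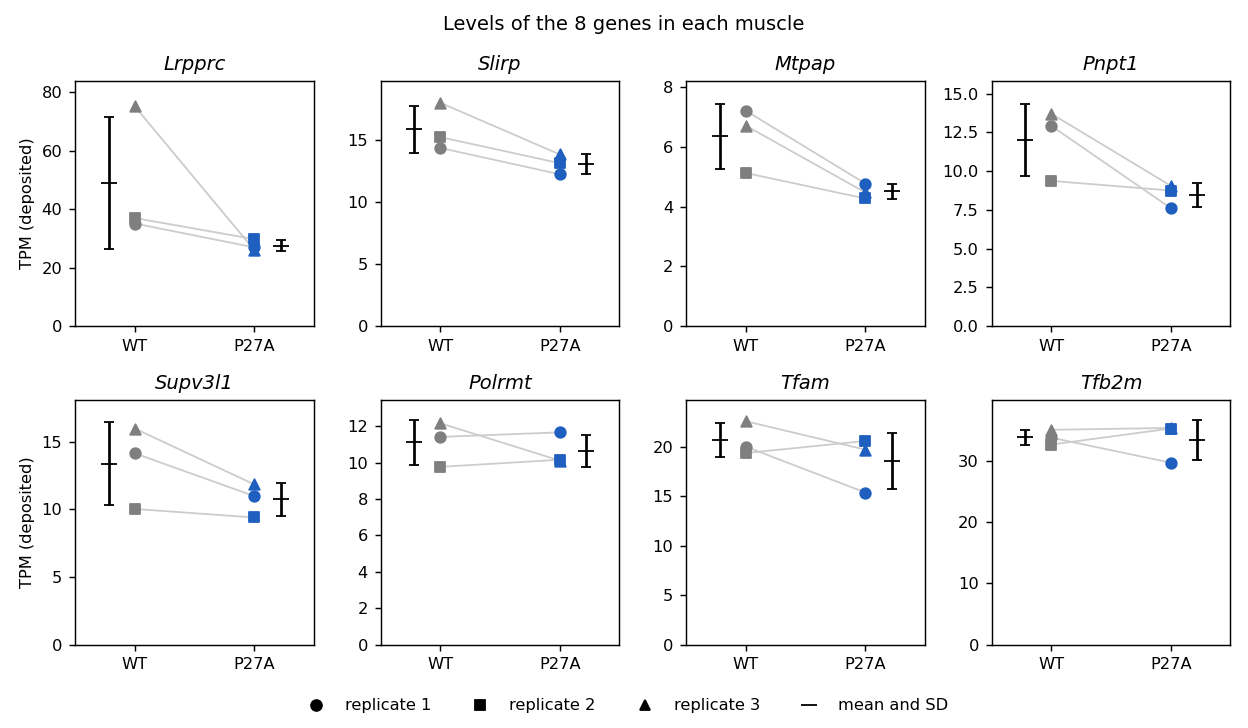
TPM of the 8 genes (vertical axes, each starting at 0) in the 3 LrpprcWT (grey) and 3 LrpprcP27A (blue) muscles, with lines joining muscles of the same replicate number and bars for mean ± SD. *Lrpprc* in LrpprcWT replicate 3 (75.2 TPM) stands apart from the other LrpprcWT values, and the groups overlap for *Supv3l1*, *Polrmt*, *Tfam* and *Tfb2m*.

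*Slirp*, the RNA-binding partner, lies on chromosome 12 (87490572 to 87506290, plus strand, 4 exons). It had 14.4, 15.2 and 18.0 TPM with LrpprcWT and 12.2, 13.1 and 13.8 TPM with LrpprcP27A. Every LrpprcP27A muscle was below every LrpprcWT muscle, and LrpprcWT replicate 3 was the highest of the 6. The means were 15.9 ± 1.90 and 13.1 ± 0.803 TPM (SD, n = 3 each), a log2 fold change of -0.26 (95% CI -0.55 to 0.03, limma adjusted p = 0.142). The sign turned with median-of-ratios scaling, to 0.09 (95% CI -0.18 to 0.37, limma adjusted p = 0.609). Of the 5698 exon bases annotated for *Slirp*, 3050 (53.5%) overlap exons of *Snw1* on the opposite strand and 216 overlap *Alkbh1*. The library kit does not mark strand, so reads from these stretches cannot be assigned to one gene. *Snw1*, a splicing factor gene, had 15.9, 13.6 and 16.9 TPM with LrpprcWT and 12.4, 12.1 and 13.8 with LrpprcP27A, a log2 fold change of -0.25 (limma adjusted p = 0.145).

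The ratio of *Lrpprc* to *Slirp* within a library does not depend on how the libraries are scaled. It was 2.44, 2.43 and 4.17 with LrpprcWT and 2.20, 2.26 and 1.88 with LrpprcP27A. The ratios of the groups did not overlap, although those of replicates 1 and 2 were close. The log2 ratio (TPM + 1) differed by -0.47 (p = 0.1 in a two-sided exact permutation test, its lower limit for 3 muscles per group). With the replicate pairs, the exact sign-flip test gave p = 0.25, also its lower limit. Leaving out 1 library at a time put the difference between -0.60 and -0.21. This was 1 of 6 within-library ratios computed and the only one tested.

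*Mtpap*, the mitochondrial poly(A) polymerase gene (chromosome 18, 4375584 to 4399147, plus strand, 9 exons), was the lowest of the 8 in every library. It had 7.21, 5.12 and 6.71 TPM with LrpprcWT and 4.77, 4.27 and 4.47 TPM with LrpprcP27A. The groups did not overlap, and LrpprcWT replicate 2 was the LrpprcWT library nearest to LrpprcP27A. The means were 6.34 ± 1.09 and 4.50 ± 0.252 TPM (SD, n = 3 each), and the log2 fold change was -0.41 (95% CI -0.75 to -0.06, limma adjusted p = 0.0727, or 0.0178 with the replicate block). Of all tested genes, 37.2% had a more negative log2 fold change. Without LrpprcWT replicate 2 it was -0.53 (limma adjusted p = 0.00673), in a fit that called 59.5% of all genes lower. With median-of-ratios scaling it was -0.09 (95% CI -0.28 to 0.11, limma adjusted p = 0.482, or 0.389 with the replicate block). Of its exon bases 13.0% overlap the antisense lncRNA gene *Gm26865*, which was at or under 0.03 TPM in every library.

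Against *Polrmt*, the polymerase whose transcripts Mtpap extends, *Mtpap* had a within-library ratio of 0.632, 0.525 and 0.552 with LrpprcWT and 0.409, 0.420 and 0.442 with LrpprcP27A. The ratios did not overlap, and their means were 0.569 ± 0.0557 and 0.424 ± 0.0169 (SD, n = 3 each). This ratio was not tested. Of all tested genes, 83.9% had a more negative log2 fold change than *Polrmt*. The share of gene pairs whose ratios do not overlap was not counted, here or for the other within-library ratios.

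The degradosome genes differed in how clearly the groups separated. *Pnpt1*, for the exonuclease (chromosome 11, 29080723 to 29112528, plus strand, 28 exons), had 12.9, 9.37 and 13.7 TPM with LrpprcWT and 7.61, 8.74 and 9.05 TPM with LrpprcP27A. All LrpprcP27A values lay below the LrpprcWT values, by little for LrpprcWT replicate 2. The means were 12.0 ± 2.31 and 8.47 ± 0.760 TPM (SD, n = 3 each), and the log2 fold change was -0.44 (95% CI -0.81 to -0.08, limma adjusted p = 0.0686, or 0.0137 with the replicate block). With median-of-ratios scaling it was -0.10 (95% CI -0.33 to 0.13, limma adjusted p = 0.504, or 0.443 with the replicate block). *Supv3l1*, for the helicase (chromosome 10, 62263235 to 62285552, minus strand, 15 exons), had 14.1, 10.0 and 16.0 TPM with LrpprcWT and 11.0, 9.39 and 11.8 TPM with LrpprcP27A. Here the groups overlapped, because the lowest LrpprcWT library, again replicate 2, was below 2 of the LrpprcP27A libraries. The log2 fold change of *Supv3l1* was -0.28 (95% CI -0.68 to 0.13, limma adjusted p = 0.235), and 0.07 with median-of-ratios scaling (95% CI -0.18 to 0.32). Without LrpprcWT replicate 2 limma called both, with -0.60 for *Pnpt1* (adjusted p = 0.00574) and -0.46 for *Supv3l1* (adjusted p = 0.0193). That fit called 59.5% of all genes lower. The *Pnpt1* to *Supv3l1* ratio was 0.902 ± 0.0395 with LrpprcWT and 0.796 ± 0.122 with LrpprcP27A (SD, n = 3 each), and the groups overlapped.

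The genes of transcription initiation differed least between the groups on the deposited scale. *Polrmt*, for the polymerase (chromosome 10, 79571957 to 79582420, minus strand, 21 exons), had 11.4, 9.76 and 12.2 TPM with LrpprcWT and 11.7, 10.2 and 10.1 TPM with LrpprcP27A. The values were interleaved, and the log2 fold change was -0.05 (95% CI -0.36 to 0.25, limma adjusted p = 0.745). *Tfam*, for the packaging factor (chromosome 10, 71061287 to 71074110, minus strand, 7 exons), had 20.0, 19.4 and 22.6 TPM with LrpprcWT and 15.4, 20.6 and 19.7 TPM with LrpprcP27A. Only LrpprcP27A replicate 1 was below all LrpprcWT libraries, and the log2 fold change was -0.15 (95% CI -0.47 to 0.17, limma adjusted p = 0.383). *Tfb2m*, for the promoter-opening factor (chromosome 1, 179355610 to 179374548, minus strand, 8 exons), had 33.7, 32.6 and 35.0 TPM with LrpprcWT and 29.7, 35.2 and 35.3 TPM with LrpprcP27A. The log2 fold change was -0.02 (95% CI -0.28 to 0.24, limma adjusted p = 0.891), and both higher LrpprcP27A values lay just above the LrpprcWT range. Of its exon bases 9.25% overlap the opposite-strand gene *Cnst*, whose log2 fold change was -0.18 (limma adjusted p = 0.295).

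These 3 genes stood high in the ranking of changes over all genes. Of all tested genes, 86.7% had a more negative log2 fold change than *Tfb2m*, 83.9% than *Polrmt* and 73.8% than *Tfam*. With median-of-ratios scaling *Polrmt* had 9.30, 10.0 and 9.69 scaled TPM with LrpprcWT and 13.0, 11.9 and 11.2 with LrpprcP27A, and it was the only one of the 8 whose groups then did not overlap, where 19.6% of all genes did not overlap with LrpprcP27A higher and 19% with it lower. The scaled log2 fold change was 0.29 for *Polrmt* (95% CI 0.09 to 0.49, limma adjusted p = 0.0652, or 0.0467 with the replicate block). It was 0.34 for *Tfb2m* (95% CI 0.07 to 0.62, limma adjusted p = 0.0942, or 0.0247 with the block) and 0.20 for *Tfam* (95% CI -0.12 to 0.53, limma adjusted p = 0.334). Relative to *Tfb2m* within a library, *Tfam* stood at 0.611 ± 0.0296 with LrpprcWT and 0.554 ± 0.0332 with LrpprcP27A (SD, n = 3 each), without overlap. The *Polrmt* to *Tfb2m* ratio overlapped between the groups.

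Motifs of factors known to act on nuclear genes of mitochondria were searched in the 300 bases around each annotated start (250 before and 50 from it) on both strands. The letters searched were GCGCNTGCG for NRF1, CCGGAAG for the ETS factor GABPA and AAGATGG for YY1. Of the 8 genes only *Polrmt* and *Slirp* held any. The NRF1 letters were in 1 of the 8 and in 8.2% of 21757 promoters of protein-coding genes, the GABPA letters in 2 and 10.3%, and the YY1 letters in 1 and 5.74%. The 80 bases that hold them are shown, with the motif letters in capitals, because these were the only promoters of the 8 with a match. The window of *Polrmt* (chr10:79582401-79582480, minus strand, GRCm39) has 2 overlapping NRF1 matches and 1 GABPA match on the other strand, and that of *Slirp* (chr12:87490512-87490591, plus strand) has GABPA and YY1 matches, both on the other strand.
Polrmt: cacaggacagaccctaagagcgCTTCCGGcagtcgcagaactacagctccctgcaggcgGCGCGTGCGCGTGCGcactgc
Slirp: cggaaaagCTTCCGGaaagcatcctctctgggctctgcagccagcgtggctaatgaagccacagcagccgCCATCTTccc

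TPM are corrected for transcript length, so levels can be ordered between genes. With LrpprcWT the order of the mean TPM was *Lrpprc*, *Tfb2m*, *Tfam*, *Slirp*, *Supv3l1*, *Pnpt1*, *Polrmt* and *Mtpap*. *Lrpprc* ranged from 35.1 TPM and *Tfb2m* up to 35.0 TPM, so that these neighbours barely separated. The values of *Slirp* and *Supv3l1*, of *Supv3l1* and *Pnpt1* and of *Pnpt1* and *Polrmt* overlapped. With LrpprcP27A *Tfb2m* came first and *Lrpprc* next, with overlapping values, and *Polrmt* stood above *Pnpt1* without overlap. *Lrpprc* was above *Tfb2m* in 3 of 3 LrpprcWT libraries, at ratios of 1.04, 1.13 and 2.15, and below it in 3 of 3 LrpprcP27A libraries, at 0.908, 0.844 and 0.736. In mean level over the 6 libraries *Lrpprc* exceeded 86.6% of the tested genes, *Tfb2m* 84.9% and *Mtpap* 41.5%.

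The spread between muscles of a group also differed among the genes. With LrpprcWT the coefficient of variation was 46.1% for *Lrpprc*, 22.8% for *Supv3l1* and 19.3% for *Pnpt1*, and only 3.56% for *Tfb2m*. With LrpprcP27A it was 7.04% for *Lrpprc* and 8.98% for *Pnpt1*, while *Tfam*, at 15.0%, varied most. Over the 8 genes and 3 pairs, 19 of 24 within-pair differences were negative, and 5 genes were negative in every pair. Replicate 2 gave the smallest decrease for each of these 5. The median of all genes was also negative in every pair, at -0.39, -0.16 and -0.40, and 88.0% of all genes had a log2 fold change below 0. The share of all genes negative in every pair was not counted.

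The genes whose pattern over the 6 libraries was most like that of *Lrpprc* were *Ccn5*, *Gpx1* and *Cgref1*, with root mean square differences of 0.139, 0.150 and 0.168 on centred log2(TPM + 1). *Gpx1*, for a glutathione peroxidase, had 83.4, 89.4 and 138.6 TPM with LrpprcWT and 54.4, 60.1 and 63.2 with LrpprcP27A. It shared the high value in LrpprcWT replicate 3. *Ccn5* was low, at 0.608 to 2.55 TPM. *Slirp* ranked 2529th in likeness to *Lrpprc* (0.357), and the nearest of the 8 was *Pnpt1*, at rank 1551 (0.332). The genes most like *Slirp* were *Mmaa* (0.0205), *Uchl3* (0.0287) and *Mrps25* (0.0297), of which the first encodes a mitochondrial protein of the cobalamin pathway and the last a subunit of the mitochondrial ribosome. These likenesses describe 6 libraries that share their scaling.

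**Figure D3:**
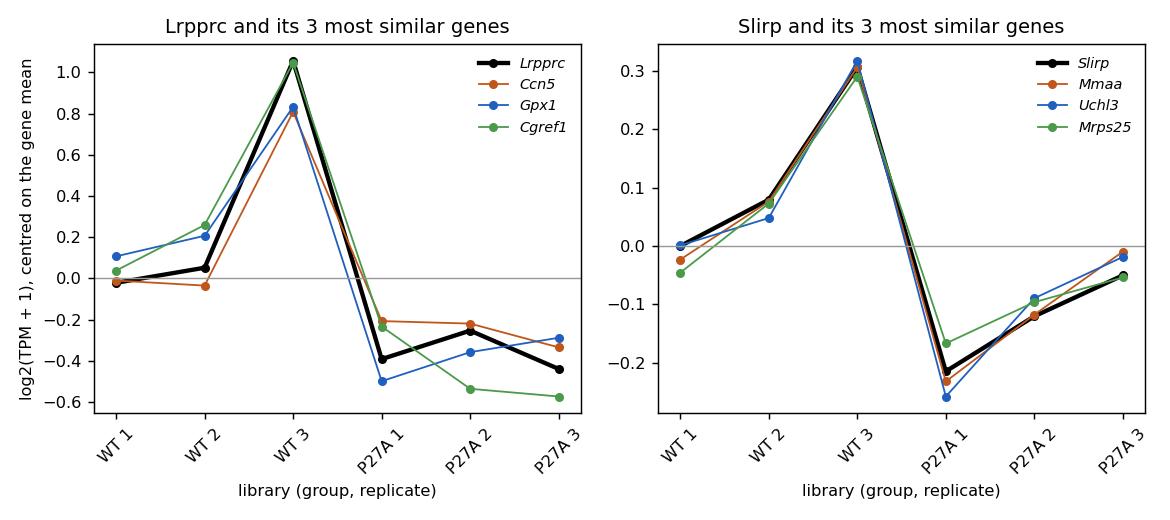
Centred log2(TPM + 1) in the 6 libraries (horizontal axis: group and replicate, joined by lines only to follow a gene) for *Lrpprc* (left) and *Slirp* (right), each with its 3 nearest genes. The *Lrpprc* group peaks in LrpprcWT replicate 3, and the *Slirp* group spans a narrower range and is lowest in LrpprcP27A replicate 1.

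Around the 8 genes, 54 other genes of mitochondrial RNA synthesis, processing, decay and modification were listed, of which 50 passed the filter. *Mterf1a*, *Mterf1b*, *Primpol* and *Trmt61b* had mean TPM of 0.561 to 0.763 and were not tested. On the deposited scale 48 of the 50 were below 0, with a median log2 fold change of -0.29 (range -0.55 to 0.06) beside the -0.32 of all genes. Limma called 6 of them lower and 0 higher, a smaller share than the 23.3% of all genes called lower (22 and 0 without adjustment of p). With the replicate block the number was 18 lower and 0 higher, against 48.4% of all genes. The groups did not overlap, lower with LrpprcP27A, in 28 of the 50, near the 47.6% of all genes. With median-of-ratios scaling the median was 0.04, with 22 of 50 below 0 and none called by limma (unadjusted, 1 lower and 5 higher), against 6.03% of all genes lower and 5.25% higher. With the block added to that scaling 0 were lower and 4 higher (*Fastk*, *Prorp*, *Mgme1* and *Angel2*), a smaller share than the 15.8% and 13.4% of all genes.

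By role, the 10 tested genes of transcription and genome maintenance had a median of -0.33, with 1 called lower by limma. This was *Mterf2*, a member of the termination factor family, with 21.4, 16.4 and 23.2 TPM with LrpprcWT and 14.1, 15.0 and 14.1 with LrpprcP27A (log2 fold change -0.46, limma adjusted p = 0.0491). *Tefm*, the elongation factor of Polrmt, had 19.7 ± 3.14 and 15.0 ± 0.635 TPM (SD, n = 3 each) and a log2 fold change of -0.36 (limma adjusted p = 0.0812, or 0.0258 with the replicate block). The 16 genes of processing and RNA granules had a median of -0.29 and also 1 gene called lower, *Ptcd3*, which encodes a ribosome-bound repeat protein (log2 fold change -0.40, limma adjusted p = 0.0480). The most abundant of them were *Grsf1*, for an RNA granule protein, at 100.1 ± 12.9 and 81.4 ± 1.32 TPM (SD, n = 3 each; log2 fold change -0.29, limma adjusted p = 0.0913), and *Fastk*, at 70.6 ± 6.12 and 65.7 ± 0.549 TPM (-0.10, limma adjusted p = 0.463).

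None of the 4 further genes of RNA decay was called by limma, with or without the block, and their median was -0.22. Without adjustment of p, limma gave *Rexo2* alone as lower. *Rexo2*, for an exonuclease of short RNA fragments, had 26.0 ± 2.35 and 21.0 ± 1.29 TPM (SD, n = 3 each; log2 fold change -0.29, limma adjusted p = 0.0860), and *Lactb2* 14.2 ± 1.74 and 11.8 ± 0.350 TPM (-0.24, limma adjusted p = 0.160). The 20 genes of RNA modification and tRNA ends held the other 4 calls and had a median of -0.29. *Trmt2b*, for a methyltransferase of mitochondrial tRNA and rRNA, had 11.8, 8.42 and 11.5 TPM with LrpprcWT and 7.07, 6.87 and 6.65 with LrpprcP27A (log2 fold change -0.54, limma adjusted p = 0.0367). *Trit1*, for the enzyme that isopentenylates tRNAs, had 9.92, 7.22 and 12.0 TPM and 6.25, 6.45 and 5.80 TPM (-0.55, limma adjusted p = 0.0497). The pseudouridine synthase genes *Rpusd3* (-0.47, limma adjusted p = 0.0443) and *Trub2* (-0.39, limma adjusted p = 0.0493) were the other two. *Mrm3*, the most abundant methyltransferase gene of the group, had 13.6 ± 3.60 and 10.1 ± 1.29 TPM, and *Mto1*, for a tRNA wobble enzyme, 11.3 ± 1.23 and 9.95 ± 0.336 TPM (SD, n = 3 each). Both overlapped between the groups. With median-of-ratios scaling limma called none of these genes.

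**Figure D4:**
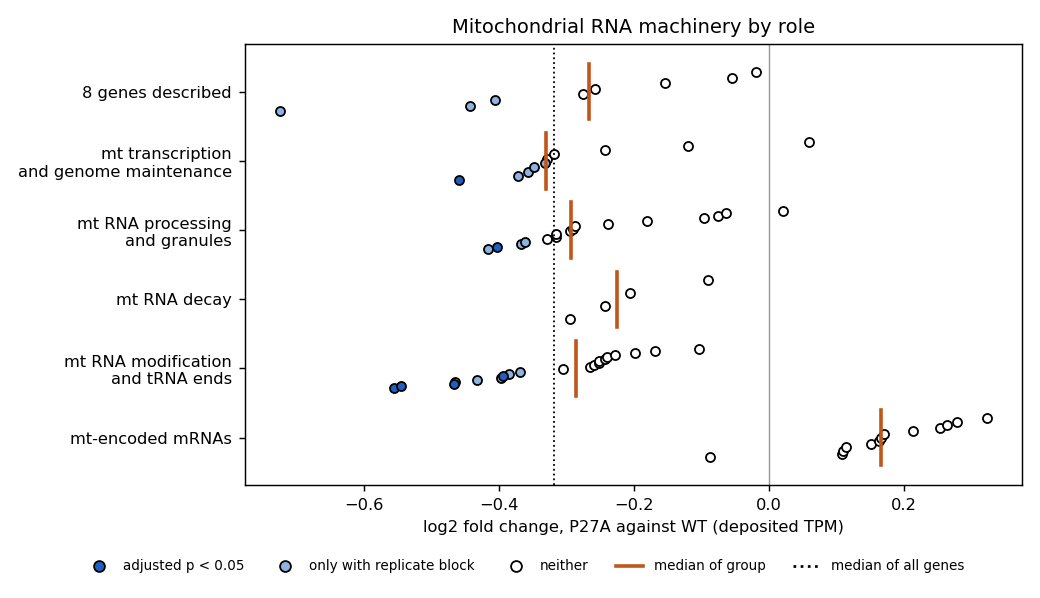
Log2 fold change of LrpprcP27A vs. LrpprcWT on deposited TPM (horizontal axis) for the 8 genes, the other machinery genes by role and the mitochondrially encoded mRNAs, 1 point per gene, with group medians (orange) and the median of all genes (dotted, -0.32). The medians of the nuclear groups lie between -0.33 and -0.22, near that of all genes, and the median of the mitochondrial mRNAs lies at 0.17.

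On the deposited scale the RNAs on which these proteins act were not called either. Of the 13 mRNAs of the mitochondrial genome, 12 had a log2 fold change above 0 and 1, *mt-Atp8*, below it (median 0.17, range -0.09 to 0.32), and limma called none with or without the block, against 1.34% and 2.69% of all genes called higher (without adjustment of p, 0 were lower and 1 higher, and the Kruskal-Wallis test gave 0 and 3). In 3 of the 13 the LrpprcP27A values lay wholly above the LrpprcWT values, against 3.51% of all genes. They lay wholly below in 0, against 47.6%. With median-of-ratios scaling all 13 were above 0, with a median of 0.54, and limma called none, against 5.25% of all genes called higher (without adjustment of p, 10 were higher). With the block added to that scaling 2 were called higher, *mt-Nd4l* (0.65, limma adjusted p = 0.0388) and *mt-Nd6* (0.70, limma adjusted p = 0.0422), against 13.4% of all genes. Together they took 40.3%, 44.5% and 35.4% of the TPM with LrpprcWT and 45.5%, 43.6% and 44.2% with LrpprcP27A. LrpprcWT replicate 3, with the highest *Lrpprc*, had the lowest share, and it also had the highest median-of-ratios factor (1.25). LrpprcWT replicate 2, with the next highest *Lrpprc*, lay within the range of LrpprcP27A. *mt-Nd6*, the mRNA of the light strand, had a log2 fold change of 0.32 on the deposited scale (limma adjusted p = 0.173). Because the library kit does not mark strand, its values on either scale may include reads from the opposite strand. The mitochondrial rRNAs *mt-Rnr1* and *mt-Rnr2* had 0.22 and 0.17 on the deposited scale and were not called in any of these 4 fits. Per TPM of *Lrpprc* there were 11475, 12025 and 4700 TPM of mitochondrial mRNA with LrpprcWT and 16880, 14672 and 17003 with LrpprcP27A, and the groups did not overlap. This was not particular to *Lrpprc*. Per TPM of *Slirp* the values were 28032, 29179 and 19624 with LrpprcWT and 37131, 33209 and 31955 with LrpprcP27A, also without overlap. Of all genes, 47.6% lay wholly lower with LrpprcP27A in their own TPM. The share of all genes that would separate the groups as denominator was not counted, so this is not a trait of the pair. Libraries were selected for poly(A), so a shorter tail on a mitochondrial mRNA and less of that mRNA cannot be told apart.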

How the data were processed

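RNA-seq was made from 6 TA muscles (3 LrpprcWT, 3 LrpprcP27A). Per the methods and labels, the authors made libraries with the TruSeq RNA Sample Prep v2 kit, used CLC Genomics Workbench to align reads to GRCm39, and deposited TPM per gene. The gene annotation they used is not given in the sources used here. TPM keep no read counts, so depth and counting error are unknown. Here log2(TPM + 1) of the 11611 genes with a mean of at least 1 TPM was compared with limma 3.58.1 (R 4.3.3, with trend), two-sided, with Benjamini-Hochberg adjustment over these genes. The fit was tested on simulated data. Same-numbered libraries (numbers 4, 8 and 9) are taken as pairs, since the study compared contralateral muscles. Their deviations from the group means correlated by 0.363, 0.528 and 0.356. Libraries with different numbers were not correlated, so these values do not test the pairing. The labels do not say outright that a number is a mouse. Members, lists and tests were chosen with earlier results of these data known. The named genes are the 8 members, the 3 lowest and highest called machinery genes, the 2 most abundant per role and the 3 most like *Lrpprc* and *Slirp*. *Ptcd3*, *Trub2*, the 4 genes higher with block and scaling, the genes that overlap members, *mt-Atp8*, *mt-Nd4l*, *Esrra* and *Rn18s-rs5* were named after their values were seen. Positions, exons and sequences come from GRCm39 and its GENCODE annotation, matched by symbol. Alternatives were another pseudocount (0.1), no filter or at least 5 TPM, limma without trend, a linear model without moderation, the Kruskal-Wallis test, the block, 3 scalings and each library left out.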

Additional observations from a re-analysis of the deposited data

How the results depend on the processing

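The number of the 8 genes called lower, 0 by limma, was 3 with the replicate block and from 0 to 4 with a library left out (4 without LrpprcWT replicate 2, in a fit that called 59.5% of all genes lower), and the number called higher was 2 with the replicate block and median-of-ratios scaling together. Of the 50 machinery genes tested, 6 were called lower. The replicate block gave 18, limma without trend 3, and no filter, the linear model without moderation, the Kruskal-Wallis test, the median-of-ratios, nuclear and quantile scalings, and block and median-of-ratios scaling together, each gave 0. With a library left out the number was 0 to 33, with 33 without LrpprcWT replicate 2 and 0 without each of the others. Block and median-of-ratios scaling together gave 4 higher. The log2 fold change of *Lrpprc* was -0.72 with the block (limma adjusted p = 0.00243) and -0.92 to -0.38 with a library left out, and it was under an adjusted p of 0.05 only without LrpprcWT replicate 2 (-0.88). The direction turned with scaling for 5 genes. Median-of-ratios scaling, alone or with the block, gave 0.093 for *Slirp*, 0.072 for *Supv3l1*, 0.29 for *Polrmt*, 0.20 for *Tfam* and 0.34 for *Tfb2m*. Quantile scaling gave 0.076, 0.061, 0.29, 0.17 and 0.27, and rescaling over nuclear genes 0.12 for *Polrmt*, 0.025 for *Tfam* and 0.16 for *Tfb2m*. With a library left out *Polrmt* ranged from -0.14 to 0.0079 and *Tfb2m* from -0.061 to 0.061. On deposited TPM the block changed the calls of *Lrpprc*, *Pnpt1* and *Mtpap*, and of no other of the 8 genes. The causes were not tested. With 3 muscles per group, no read counts and unmarked strand, small differences of these genes are not resolved.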

Other observations

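Nuclear regulators of mitochondrial genes were read beside the 8 genes. The 8 listed were coactivators of the PGC-1 family and transcription factors or subunits of such factors. All 8 had log2 fold changes below 0 on deposited TPM, with a median of -0.40, where 88.0% of all genes were below 0. None was called by limma (without adjustment of p, 2 were lower and 0 higher). With the replicate block 5 were called lower, against 48.4% of all genes. With median-of-ratios scaling 5 were below 0, where 50.8% of all genes were, and none was called. With the block added to that scaling none was lower and 1 higher, *Esrra* (0.28, limma adjusted p = 0.0402), against 15.8% and 13.4% of all genes. *Ppargc1a*, which encodes a coactivator of mitochondrial biogenesis, had 16.2, 8.07 and 37.9 TPM with LrpprcWT and 8.64, 9.87 and 16.5 TPM with LrpprcP27A. The groups overlapped, and replicate 3 was the highest of both. Its log2 fold change was -0.58 (limma adjusted p = 0.324, or 0.0160 with the replicate block), and with median-of-ratios scaling it was -0.23 (limma adjusted p = 0.746, or 0.462 with the block).

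The GABPA letters were in 19 of 53 promoters of the other machinery genes (35.8%), the NRF1 letters in 5 (9.43%) and the YY1 letters in 7 (13.2%), beside 2, 1 and 1 of the 8 genes described.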
